A study of Mus musculus with 5 samples.

Results

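The genes examined here encode the subunits of the proteasome, followed through single cells of mouse mammary tumor organoids. Members were the genes whose symbol begins with Psma, Psmb, Psmc or Psmd and ends in a number, without the inducible subunits Psmb8 and Psmb9. This rule gave 36 of 18384 genes, and 35 of them had enough counts to be tested in every comparison. The exception was Psmb11, a subunit of the thymic proteasome, with 40 counts in all retained wells. MMTV-PyMT organoids derive from mammary carcinomas of mice in which the mouse mammary tumor virus promoter drives the polyoma middle T oncogene in mammary epithelium. All organoids came from 1 such model, were expanded in BME (a basement membrane extract) in FGF2-containing medium, and were then re-embedded for 5 days. The control group stayed in BME and is labelled as not invading (3 plates), whereas the other group was placed in Collagen I and is labelled as invading (2 plates, replicates 1 and 3). Live cells freed with Collagenase I, Dispase II and trypsin were sorted singly into 384-well plates and sequenced by SORT-seq, which counts transcript 3′ ends with unique molecular identifiers (UMIs). Replicate 2 of Collagen I was not analysed here. Neither the age of the mice nor separate cultures for the plates are given, so p-values measure the spread between plates.

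The proteasome is the protease that degrades most ubiquitin-tagged proteins in the cytosol and nucleus. Its core particle is a barrel of stacked rings, with alpha subunits (Psma) that gate the channel and beta subunits (Psmb) that hold the active sites. The regulatory particle caps the barrel. Its base carries ATPases (Psmc) that unfold and thread substrates together with scaffold and ubiquitin-binding subunits (Psmd1, Psmd2, Psmd4), and its lid carries most other Psmd subunits, among them the deubiquitinase Psmd14. Degradation of cyclins and other regulators by the proteasome drives the cell cycle. The members comprised 14 core genes, 17 regulatory genes, the regulatory-particle assembly chaperones Psmd5, Psmd9 and Psmd10, the inducible Psmb10 and the thymic Psmb11.

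A promoter window was at hand for 30 of the 36 members, from 250 bases before to 50 after the start site (RefSeq, GRCm38.p6). The heptamer CCGGAAG, bound by ETS family factors, occurred on either strand in 9 of these 30 windows (30%), compared with 9.12% of all 27025 promoters and 19.3% of the 8445 promoters of tested genes. All 9 belonged to the 14 regulatory genes with a window, and 0 of the 11 core genes with a window held it. The antioxidant response element TGACNNNGC, read by the proteasome regulators NFE2L1 and NFE2L2, occurred in 5 of 30 windows (16.7%, compared with 15.3% of tested genes). CCAAT was found in 40% of member windows (39.03% of tested genes), the E-box CACGTG in 10% (10.7%) and the GC box GGGCGG in 60% (66.95%). Both strands were searched, motifs could overlap each other, and a match describes letters, not a bound site. The 100 bases before the RefSeq start site are shown for Psmc4, the member ATPase gene that changed most between cycling and non-cycling wells. They are also shown for Psmd14, the deubiquitinase among the members, and for catalytic subunits with an antioxidant response element (Psmb5 and Psmb6). The same 100 bases are given for regulatory genes with the ETS heptamer (Psmd2 and Psmd11). They run 5′ to 3′ on the strand of the gene, capitals mark matches to any of these motifs on either strand, and the genes were picked after their values were seen. In the GENCODE vM21 annotation the last bases of 2 stretches lie in exons, 27 of 100 for Psmb5 and 9 of 100 for Psmc4.
Psmc4 (chr7:28050093-28050192, minus strand): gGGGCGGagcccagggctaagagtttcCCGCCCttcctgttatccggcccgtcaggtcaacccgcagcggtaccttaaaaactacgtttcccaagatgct
Psmd14 (chr2:61711594-61711693, plus strand): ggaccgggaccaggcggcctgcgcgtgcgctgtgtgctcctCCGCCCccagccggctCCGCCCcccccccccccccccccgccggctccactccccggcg
Psmb5 (chr14:54617996-54618095, minus strand): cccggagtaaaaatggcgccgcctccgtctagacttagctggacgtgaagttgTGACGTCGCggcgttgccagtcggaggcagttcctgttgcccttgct
Psmb6 (chr11:70525257-70525356, plus strand): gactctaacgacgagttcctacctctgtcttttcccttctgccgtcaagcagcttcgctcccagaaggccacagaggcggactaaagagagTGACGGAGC
Psmd2 (chr16:20651552-20651651, plus strand): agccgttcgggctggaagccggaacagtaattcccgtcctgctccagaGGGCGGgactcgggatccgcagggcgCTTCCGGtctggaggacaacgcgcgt
Psmd11 (chr11:80428515-80428614, plus strand): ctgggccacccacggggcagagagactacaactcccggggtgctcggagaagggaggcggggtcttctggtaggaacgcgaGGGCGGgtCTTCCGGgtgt

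Wells were classed from their own transcripts, as ranges and not as cell types, so keratin and cycling classes share wells. Basal wells held at least 5 counts of Krt5, Krt14 and Krt17 together per 10000 counts, and non-basal wells held under 2. Cycling wells held at least 10 counts per 10000 of 16 cell-cycle genes such as Mki67 and Top2a, and non-cycling wells held under 5. This gave 92 to 114 basal wells per BME plate and 88 and 138 in the Collagen I plates, 166 to 190 and 133 and 144 non-basal wells, and 140 to 159 and 42 and 61 cycling wells. Between 8 and 22 wells per plate lay at 4 to 6 keratin counts per 10000, and 8 to 24 lay at 8 to 12 counts of the cell-cycle list. These limits are relative to the counts of a well, so they rest on fewer counts in the shallower Collagen I wells. The median non-basal well held 0.21 to 0.43 keratin counts per 10000 in BME and 0 in both Collagen I plates. Whether this shifted the comparisons between matrices was not tested. The 6 basal markers not used for classing, such as Trp63 and Col17a1, were all higher in basal wells (median log2 fold change 2.18). Likewise, all 8 S phase genes not used for classing were higher in cycling wells (median 1.43). Luminal markers were present in every class: their median per well was 9.88 to 11.6 per 10000 in basal wells of BME and 34.9 and 28.2 in basal wells of Collagen I. In non-basal wells this median was 22.2 to 25.5 in BME and 29.7 and 27.3 in Collagen I. Luminal markers were thus lower in basal wells in BME but not in Collagen I. The 3 immune markers listed reached at most 3.76 CPM (counts per 1000000 counts of the class). Fibroblast markers summed to 331 to 415 CPM in the Collagen I replicate 3 classes, 71.9 to 142 in Collagen I replicate 1 and at most 46.6 in BME.

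Total counts were 9077590 to 10911740 per BME plate but 1631981 and 1091410 in Collagen I, and the median retained well held 21739 to 25603 counts compared with 5106 and 2749. File names place all BME plates on the same flow cell and each Collagen I plate on its own, hence the matrix and the sequencing run cannot be told apart. Transcripts listed on chromosome M, which include genes beyond those named mt- that set the limit for keeping wells, took 13.5 to 17.9% of the counts of retained wells in BME and 7.89 and 9.32% in Collagen I, and ribosomal RNA (Rn45s) 1.69 to 2.70% and 6.84 and 8.35%. Cycling wells made up 45.6 to 49.8% of retained wells in BME and 16.7 and 20.0% in Collagen I.

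Transcripts of the proteasome were higher in cycling than in non-cycling wells of the same plates. Of 35 members tested, 28 rose at an adjusted p under 0.05 and 0 fell (edgeR quasi-likelihood test with the plate as a block), where 20.6% of all tested genes were called higher and 18.3% lower. At an unadjusted p under 0.05 the count was 30 in either direction, and DESeq2 called 24 higher and 0 lower. The median log2 fold change was 0.38 over the members and -0.02 over all tested genes. In the alpha ring 6 of 7 genes rose, in the beta ring 6 of 7, among the base ATPases 5 of 6, among the other base subunits 2 of 3 and in the lid 7 of 8. In 26 of 35 members the cycling wells were higher in all 5 plates, as in 19% of all tested genes.

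Regulatory subunits supplied the largest of these changes. Psmc4, an ATPase of the base, reached 136, 133 and 139 CPM in the cycling wells of BME replicates 1 to 3 and 106 and 103 in Collagen I. In non-cycling wells it measured 83.1, 98.4 and 85.4 CPM in BME against 78.1 and 46.7 in Collagen I. The cycling value was above the non-cycling value in every plate, with a log2 fold change of 0.66 (SE 0.09, adjusted p = 1.29e-05). Psmd1, the large scaffold of the base, was at 278, 254 and 278 CPM in cycling wells of BME and 205 and 224 in Collagen I. Its non-cycling wells held 182, 172 and 197 CPM in BME and 113 and 110.0 in Collagen I. No cycling value of Psmd1 fell within the range of the non-cycling values, and the log2 fold change was 0.65 (SE 0.08, adjusted p = 2.67e-06). Psmd14, the lid deubiquitinase that removes ubiquitin chains from substrates, was at 208, 194 and 206 CPM in cycling wells of BME and 169.8 and 129 in Collagen I. The non-cycling wells held 144, 126 and 127 CPM in BME and 112 and 85.9 in Collagen I. Each plate again showed the cycling wells higher (log2 fold change 0.63, SE 0.08, adjusted p = 5.03e-06). Psmd13, a structural lid subunit, was at 123, 144 and 152 CPM in cycling wells of BME and at 124 and 64.6 in Collagen I, compared with 73.04, 107 and 110.3 and with 85.1 and 79.8 in non-cycling wells. Collagen I replicate 3 was the only plate in which Psmd13 was lower in cycling wells, and the fitted log2 fold change was 0.51 (SE 0.10, adjusted p = 0.000573).

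The core particle followed in the same direction. Psma3, an alpha ring subunit, was at 239.7, 299.7 and 309 CPM in cycling wells of BME and 248 and 262 in Collagen I, against 178, 231 and 205 and 159 and 159.7 in non-cycling wells (log2 fold change 0.53, SE 0.08, adjusted p = 2.05e-05). Psma1, its neighbor in the ring, was at 197, 219 and 217 CPM in cycling wells of BME and 127 and 156 in Collagen I, against 136, 151 and 161 and 108 and 102. Both genes were higher in the cycling wells of all 5 plates, and for Psma1 the log2 fold change was 0.51 (SE 0.08, adjusted p = 8.05e-05). The 3 genes for the constitutive active sites also rose. Psmb5, the chymotrypsin-like site that proteasome inhibitors bind best, was at 145, 243 and 248 CPM in cycling wells of BME and 166 and 175 in Collagen I, against 123, 188 and 202 and 137 and 125. BME replicate 1 was the lowest plate of its group in both classes, yet the cycling wells were higher in each plate (log2 fold change 0.34, SE 0.08, adjusted p = 0.00246). Psmb6, the caspase-like site, was at 219, 209 and 226 CPM in cycling wells of BME and 251 and 243 in Collagen I, compared with 176, 179 and 177 and with 175 and 167. The cycling and non-cycling ranges of Psmb6 did not overlap (log2 fold change 0.37, SE 0.08, adjusted p = 0.000874). Psmb7, the trypsin-like site, was at 435, 309.8 and 395 CPM in cycling wells of BME and 294 and 334 in Collagen I, against 344, 270.2 and 303 and 215 and 194 (log2 fold change 0.40, SE 0.08, adjusted p = 0.000433). Exons of Nek6 on the opposite strand lie in the last kilobase of Psmb7, and pseudogenes of Psmb5, Psmb6 and Psmb7 are annotated, so the values of these genes carry that uncertainty.

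Members that did not pass the test came from every part of the complex. They were Psma6 (log2 fold change 0.22), Psmb1 (-0.07), Psmb10 (-0.18), Psmc6 (0.22), the ubiquitin receptor Psmd4 (0.07), the lid subunit Psmd8 (0.01) and Psmd10 (-0.18). Psmd10, also known as gankyrin, is an assembly chaperone that binds the retinoblastoma protein. It was at 63.1, 61.7 and 66.3 CPM in cycling wells of BME and 24.8 and 30.4 in Collagen I, against 72.3, 70.9 and 71.5 and 55.4 and 34.6 in non-cycling wells. It was the only member that was lower in the cycling wells of all 5 plates (17.2% of all tested genes), without passing the test (SE 0.11, adjusted p = 0.221). The Collagen I cycling values of Psmd10 rest on 7 and 8 counts.

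**Figure D1:**
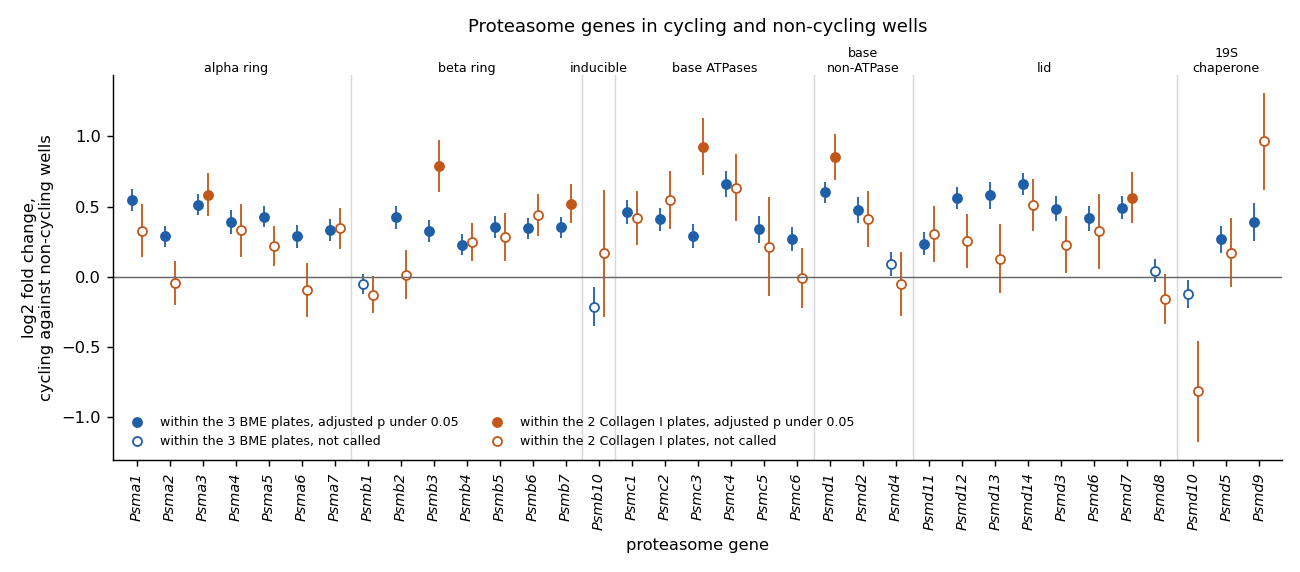
Log2 fold change of 35 proteasome genes between cycling and non-cycling wells (vertical axis), grouped by place in the complex (horizontal axis), within the BME plates (blue) and the Collagen I plates (orange). Bars are standard errors and filled points have an adjusted p under 0.05. Of the blue points 30 are filled and all lie above 0, whereas 6 orange points are filled and the orange bars are longer.

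Within the BME plates alone 30 members rose (21.7% of all tested genes), and within the Collagen I plates alone 6 rose (6.21%). These 6 were Psma3, Psmb3, Psmb7, Psmc3, Psmd1 and Psmd7. In BME the count was 21 in DESeq2 (12.5% of all genes called higher), 14 without the plate block (13.5%) and 5 of 34 after thinning (8.67%). In Collagen I it was 3 without the plate block (4.31% of all genes) and 3 without the top 5% of wells (3.31%). It was 4 there in DESeq2 (4.94%), 9 with library sizes alone (7.44%) and 0 after thinning (3.39%). Leaving out a Collagen I plate left 1 plate in that group. The member median there was 0.22 without replicate 1 and 0.21 without replicate 3. The median log2 fold change of the members was 0.35 in BME and 0.31 in Collagen I. When the difference between matrices was tested directly, 0 of 35 members passed in edgeR (0.72% of all genes), 3 had an unadjusted p under 0.05, and DESeq2 also called 0. In simulated counts this test recovered 23% of 2-fold and 51% of 4-fold changes, so such differences could be missed. Cycling wells were also the deeper ones, with median counts of 24248 to 28819 in BME and 6314 and 3359 in Collagen I, compared with 18657 to 25079 and 4959 and 2710 in non-cycling wells. After each well was thinned to 2000 counts, 6 of the 34 members then tested rose, where 10.2% of the 5338 genes tested were called higher, and the median was 0.34. Of the called members given with values above, Psmd1 and Psma1 passed under all 18 alternatives. The calls of Psmc4, Psmd14, Psmd13, Psma3, Psmb5, Psmb6 and Psmb7 were lost after thinning. Their highest adjusted p over the alternatives ran from 0.0501 for Psmd14 to 0.233 for Psmb6. The Psmb5 call was also lost without the plate block.

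Summed core and regulatory transcripts showed the same pattern in every plate. The 14 core genes summed to 3306 to 3757 CPM in cycling wells of BME and to 3121 and 3069 in Collagen I. In non-cycling wells they summed to 2694 to 3082 CPM in BME and 2534 and 2304 in Collagen I. The 17 regulatory genes summed to 2342 to 2805 CPM in cycling wells of BME and 2268 and 2119 in Collagen I, against 1771 to 2227 and 1697 and 1468. Both sums were thus higher in the cycling wells of each of the 5 plates, and the regulatory sum by the larger factor. Per well, the median core sum was 26.6 to 37.02 per 10000 counts in cycling wells and 20.4 to 29.2 in non-cycling wells.

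**Figure D2:**
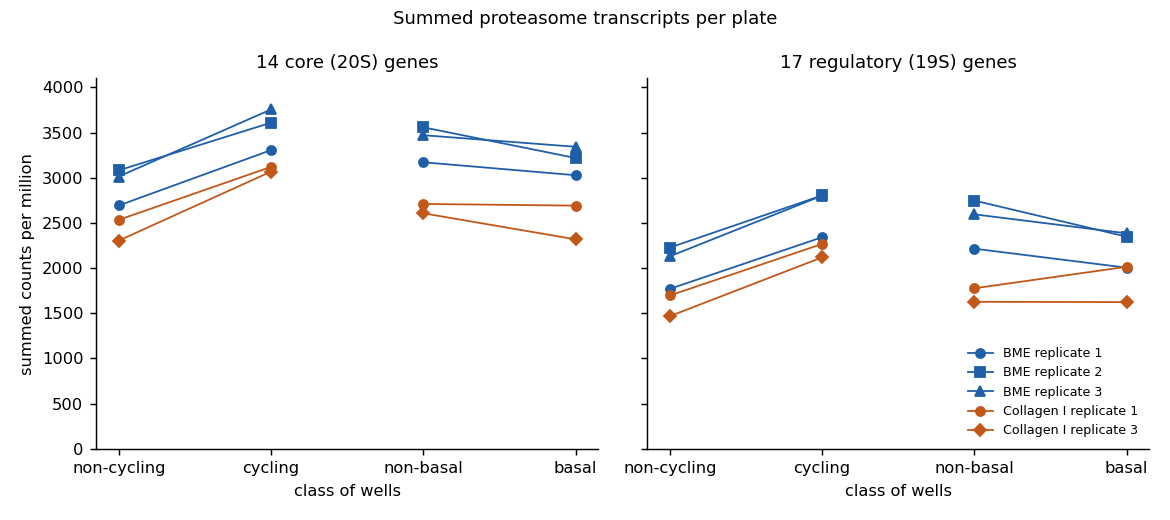
Summed CPM (vertical axis) of 14 core genes (left) and 17 regulatory genes (right) by class of wells (horizontal axis), with 1 line per plate joining the classes of a pair. The lines rise from non-cycling to cycling wells in all 5 plates. Both Collagen I plates lie below the BME plates in every class except for the regulatory sum in basal wells, where they overlap.

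The ratio of core to regulatory counts was accordingly lower in cycling wells. In BME it was 1.41, 1.29 and 1.34 in cycling wells and 1.52, 1.38 and 1.41 in non-cycling wells, and in Collagen I it was 1.38 and 1.45 against 1.49 and 1.57. Each plate had the lower ratio in its cycling wells. In non-basal wells the ratio was 1.43, 1.30 and 1.34 in BME and 1.53 and 1.60 in Collagen I, which did not overlap. The difference of the mean log2 ratios was 0.21, compared with an SD of 0.07 between BME plates (n = 3), but 0.03 once wells were thinned to 2000 counts. In basal wells the ratio was 1.51, 1.37 and 1.40 in BME and 1.34 and 1.43 in Collagen I, and the plates overlapped. No p is given for these sums, because they are scores over chosen genes.

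**Figure D3:**
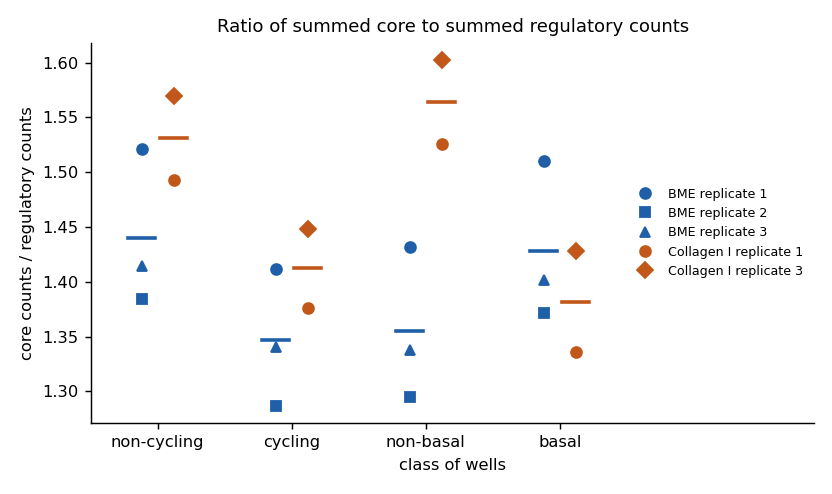
Ratio of summed core to summed regulatory counts (vertical axis, not starting at 0) in each class of wells (horizontal axis), with a point per plate and a bar at the mean of each matrix. In non-basal wells the 2 Collagen I plates lie above the 3 BME plates, and in the other classes the plates overlap.

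Between matrices, the members were lower in Collagen I, with the most calls in non-basal wells. No member passed the direct test, given below, of whether this change differed between basal and non-basal wells. In non-basal wells 17 of 35 members fell and 0 rose, where 13.9% of all tested genes were called lower and 14.1% higher. DESeq2 called 11 lower and 0 higher, and 19 members had an unadjusted p under 0.05. The median log2 fold change was -0.48 over members and -0.03 over all genes. Of the core genes 5 of 14 fell, of the regulatory genes 11 of 17, and of the 3 assembly chaperones 1. The core sum was 3401 ± 203 CPM in BME (SD, n = 3) and 2659 ± 73.1 in Collagen I (n = 2), and the regulatory sum was 2519.6 ± 274 compared with 1702 ± 106. For 23 of 35 members the Collagen I plates lay outside the range of the BME plates, always below it. Of all tested genes 31.8% lay below and 26.6% above in this way.

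Psmc5, an ATPase of the base encoded at chr11:106256154-106263120 on the plus strand (GRCm38), had the lowest log2 fold change. It was at 79.03, 132 and 102 CPM in non-basal wells of BME and at 33.01 and 22.6 in Collagen I, where 28 and 12 counts were recorded. The Collagen I values were all below the lowest BME plate, and the log2 fold change was -1.84 (SE 0.28, adjusted p = 0.000144). Psmc2, another of the 6 ATPases, was at 158, 186 and 176 CPM in BME against 86.1 and 84.7 in Collagen I. Its groups were likewise apart (log2 fold change -1.003, SE 0.17, adjusted p = 0.000429). Psmc4 was at 121, 123 and 118 CPM in BME and 75.5 and 54.6 in Collagen I (log2 fold change -0.85, SE 0.18, adjusted p = 0.00276). The scaffold Psmd1 was at 259, 232 and 261 CPM in BME against 133 and 150.5 in Collagen I, which again left the groups apart (log2 fold change -0.81, SE 0.16, adjusted p = 0.00165). Psmd10 was at 67.7, 59.3 and 73.2 CPM in BME and 44.8 and 28.2 in Collagen I (log2 fold change -0.81, SE 0.23, adjusted p = 0.0170). Psmd14 was at 197, 191 and 183 CPM in BME and 132 and 92.2 in Collagen I, all below the BME range (log2 fold change -0.72, SE 0.17, adjusted p = 0.00512). The Psmd1 call was lost without Collagen I replicate 1 and after thinning (adjusted p 1.06e-05 to 0.179 over 18 alternatives), and that of Psmc4 after thinning alone (8.18e-05 to 0.746). The Psmd14 call was lost without Collagen I replicate 3 and with cycling wells left out (0.000143 to 0.0857). The Psmd10 call was lost in 5 alternatives, among them without BME replicate 3 and without Collagen I replicate 3 (0.00183 to 0.276).

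Of the active-site genes, 1 of 3 passed the test. In non-basal wells Psmb7 was at 424, 309 and 364 CPM in BME and 231 and 252 in Collagen I and fell (log2 fold change -0.58, SE 0.17, adjusted p = 0.0204), a call that was lost without either Collagen I plate and after thinning (adjusted p 0.000841 to 0.414 over 18 alternatives). Psmb5 was at 139, 239 and 229 CPM in BME and 147 and 126 in Collagen I, overlapped because of BME replicate 1, and did not pass the test (log2 fold change -0.54, SE 0.22, adjusted p = 0.0788). Without BME replicate 1 it passed (log2 fold change -0.72, adjusted p = 0.000446, and 0.000446 to 0.364 over the alternatives). Psmb6 was at 210.3, 207 and 208 CPM in BME and 205 and 192 in Collagen I, with a log2 fold change of -0.05 (SE 0.15, adjusted p = 0.843) whose sign changed between alternatives. Whether the 3 genes differed from each other in their response was not tested. Of the members, 3 had a fitted change above 0, namely Psmb1, Psmb2 and Psmd9.

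**Figure D4:**
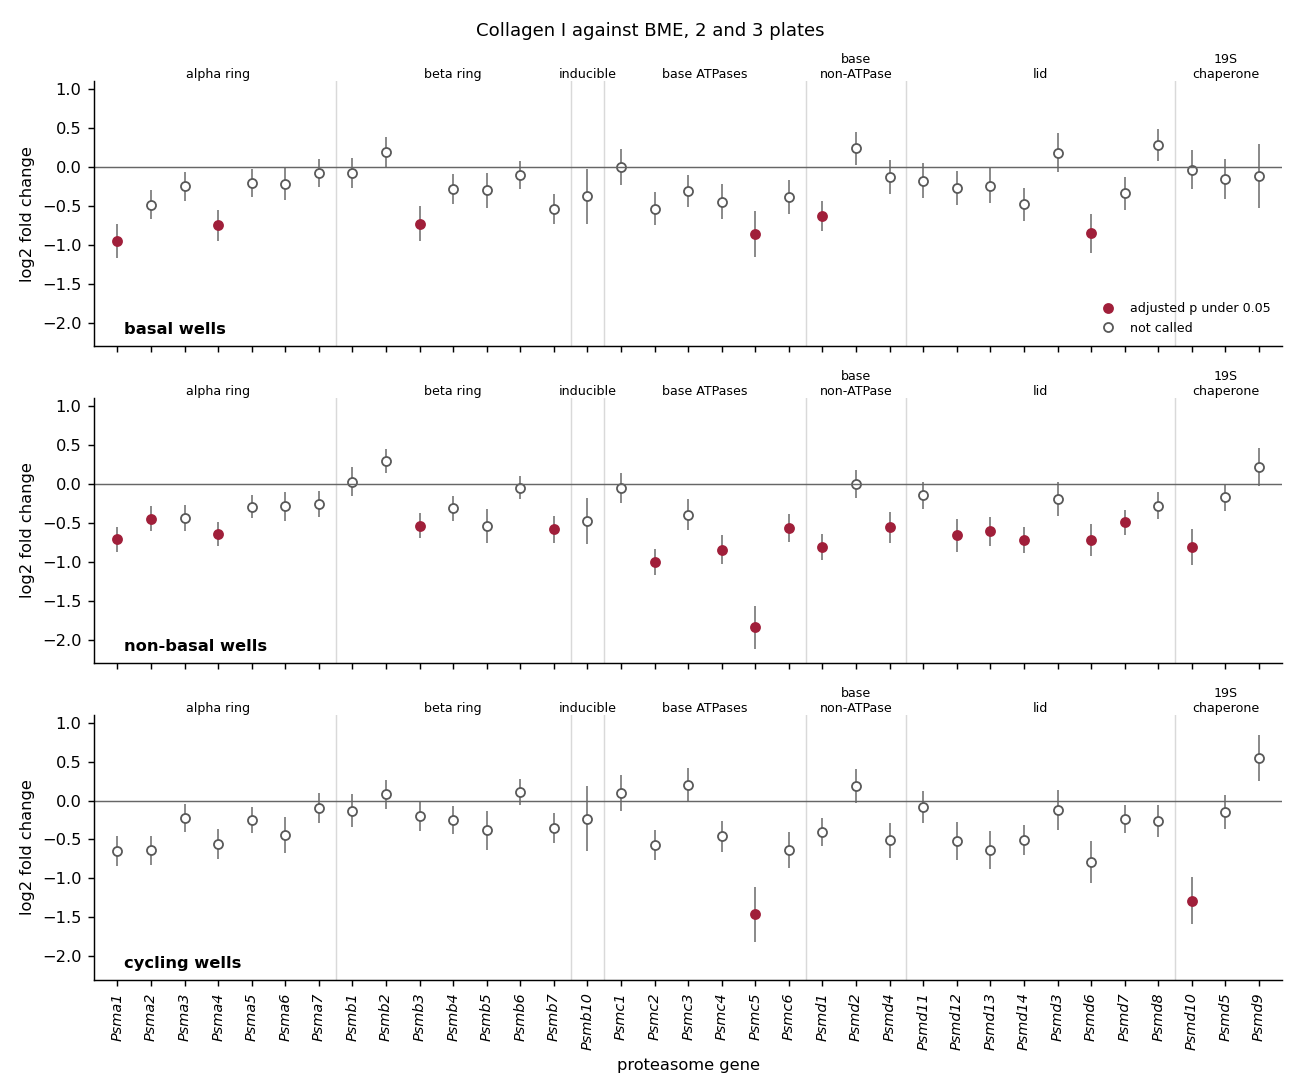
Log2 fold change between Collagen I and BME (vertical axis) of 35 proteasome genes (horizontal axis) in basal, non-basal and cycling wells, with standard errors, filled where the adjusted p was under 0.05. Filled points lie below 0 in all panels, with 6, 17 and 2 of them, and Psmc5 is the lowest point of the middle and bottom panels.

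In basal wells 6 of 35 members fell in Collagen I and 0 rose (8.31% of all tested genes were called lower and 10.8% higher), with 2 lower and 0 higher in DESeq2, 10 at an unadjusted p under 0.05 and a median log2 fold change of -0.27. For 17 members the plates did not overlap, always with Collagen I lower, as in 29.7% of all tested genes (and with Collagen I higher in 23.5%). Psma1 was at 159, 180.4 and 169 CPM in BME and 74.4 and 95.8 in Collagen I, the largest change in this class (log2 fold change -0.95, SE 0.22, adjusted p = 0.00314). Psmc5 was at 68.7, 113 and 96.9 CPM in BME and 64.4 and 34.6 in Collagen I, with Collagen I replicate 1 just under the lowest BME plate (log2 fold change -0.86, SE 0.29, adjusted p = 0.0422). Psmd6, a lid subunit, was at 94.4, 111 and 101 CPM in BME and 66.9 and 42.6 in Collagen I, and the groups were apart (log2 fold change -0.85, SE 0.25, adjusted p = 0.0183). Psma4, an alpha subunit, was at 257, 209 and 231 CPM in BME and 151 and 117 in Collagen I (log2 fold change -0.75, SE 0.20, adjusted p = 0.0114). Psmb3, a beta subunit without an active site, was at 145, 168 and 174 CPM in BME and 124 and 66.5 in Collagen I (log2 fold change -0.73, SE 0.23, adjusted p = 0.0296). Psmd1 was at 215, 208 and 229 CPM in BME and 149 and 125 in Collagen I (log2 fold change -0.62, SE 0.19, adjusted p = 0.0264). The Collagen I plates lay below the BME plates in all 6 genes. Calls were lost without Collagen I replicate 1 for Psma1, Psmc5 and Psmd1, and without Collagen I replicate 3 for Psmc5, Psmd6, Psma4, Psmb3 and Psmd1. They were also lost without BME replicate 2 for Psmc5 and without BME replicate 3 for Psmc5, Psmb3 and Psmd1. Over all 18 alternatives the highest adjusted p was 0.0882 for Psma1, 0.162 for Psma4, 0.2396 for Psmd6, 0.2405 for Psmd1, 0.398 for Psmb3 and 0.412 for Psmc5. The active-site genes Psmb5, Psmb6 and Psmb7 did not pass the test in basal wells (log2 fold changes -0.30, -0.10 and -0.54, adjusted p = 0.398, 0.752 and 0.058). Psmb7 passed in 5 of 18 alternatives, Psmb5 in 1 and Psmb6 in 0.

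**Figure D5:**
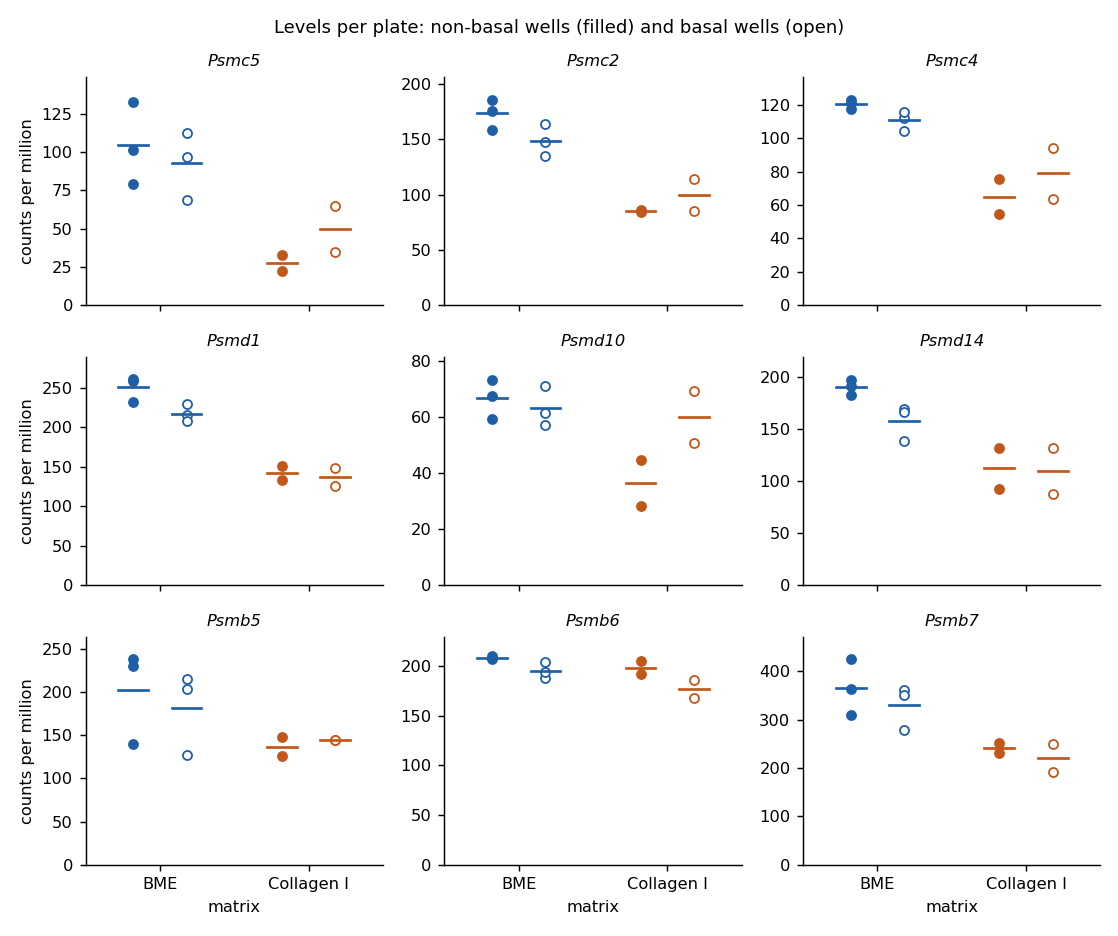
CPM per plate (vertical axis, starting at 0) of 9 proteasome genes in BME and Collagen I (horizontal axis), with filled points for non-basal wells, open points for basal wells and bars at the means. Psmc5 non-basal points are at 79.03 to 132 in BME and at 22.6 and 33.01 in Collagen I, whereas the Psmb6 points of both matrices lie close together.

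When cycling wells were compared with cycling wells, 2 of 35 members fell and 0 rose (3.15% of all tested genes were called lower and 4.52% higher), DESeq2 also called 2 lower and 0 higher, and 14 members had an unadjusted p under 0.05. The median log2 fold change was -0.26, and for 16 members the plates did not overlap, with Collagen I lower in 13 and higher in 3. Of all tested genes 23.7% were lower and 24.1% higher without overlap. Psmc5 was at 81.9, 126 and 109 CPM in cycling wells of BME and 60.1 and 18.99 in Collagen I (log2 fold change -1.46, SE 0.36, adjusted p = 0.0202), on 17 and 5 counts in Collagen I. Psmd10, whose values are given above, was the other (log2 fold change -1.29, SE 0.31, adjusted p = 0.0171). In both genes the Collagen I plates lay below all BME plates. The Psmc5 call was lost without Collagen I replicate 3 (adjusted p 3.23e-05 to 0.278 over the alternatives), and that of Psmd10 without BME replicate 3, without either Collagen I plate and after thinning (0.0022 to 0.197). Psmb5, Psmb6 and Psmb7 did not pass the test (log2 fold changes -0.38, 0.11 and -0.35). The cycling wells of the matrices also differed in cell-cycle genes. The 8 S phase genes summed to 1852 to 1936 CPM in BME and 1160 and 1143 in Collagen I. Of these 8, 4 were called lower and 0 higher (median log2 fold change -0.86). Of the 16 genes used for classing, 3 were called higher and 0 lower (median 0.26). Whether this bears on the members was not tested.

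Between matrices the classes also differed in the share of cycling wells. Among non-basal wells 58.9, 60.2 and 46.96% were cycling in BME and 21.1 and 25% in Collagen I, and among basal wells 33.3, 33.3 and 46.7% compared with 11.4 and 12.3%. With cycling wells left out, the counts of lower members dropped from 17 to 6 in non-basal wells and from 6 to 2 in basal wells, and the medians were -0.38 and -0.15. Fewer of all genes were called lower as well, 9.85% in non-basal and 5.87% in basal wells, so the basal count was near the background. Among the non-basal genes named above, Psmc5, Psmc2, Psmc4, Psmd1 and Psmb7 passed without cycling wells, and Psmd10 and Psmd14 did not. The counts also moved when a BME plate was left out, and so did the share of all genes called lower. In non-basal wells they were 23, 11 and 9 without BME replicates 1, 2 and 3 (17.5, 13.6 and 11% of all genes). In basal wells they were 9 and 3 without BME replicates 1 and 3 (10.3 and 5.92%). In cycling wells they were 10 and 1 without BME replicates 1 and 3 (6.52 and 2.02%). Leaving out a Collagen I plate left 1 plate in that group. Without Collagen I replicates 1 and 3 the member medians were -0.481 and -0.476 in non-basal and -0.42 and -0.23 in basal wells. In cycling wells these medians were -0.32 and -0.30. Psmc5 and Psmc2 passed in non-basal wells under all 18 alternatives, whereas the basal call of Psmc5 was lost in 8 of 18. The part of cell-cycle share, depth and fibroblast transcripts in these differences was not tested.

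Between basal and non-basal wells of the same plates, Psma1 was the only member that passed the test (0 of 35 higher and 1 lower, where 13.6% of all tested genes were called lower and 14.1% higher), with 4 at an unadjusted p under 0.05 and 1 lower in DESeq2. It was at 159, 180.4 and 169 CPM in basal wells of BME and 74.4 and 95.8 in Collagen I, against 187, 206 and 206 and 120.3 and 120.4 in non-basal wells. The basal value was lower in all 5 plates, with a log2 fold change of -0.32 (SE 0.10, adjusted p = 0.0246), and the call was lost without BME replicate 1, without BME replicate 3, after thinning and with cycling wells left out (adjusted p 0.0119 to 0.617 over the alternatives). Leaving out Collagen I replicate 1 gave 3 members in place of 1 (14.2% of all genes were then called lower). The median log2 fold change of the members was -0.13. Within BME 9 members were lower in basal wells (17.3% of all genes), among them 4 lid subunits. This count was 3 without BME replicate 1 (12.9% of all genes), 3 without BME replicate 2 (14%) and 4 in DESeq2 (10.3%). It was 0 after thinning (6.14%), with cycling wells left out (9.34%) and without the plate block (9.27%). Within Collagen I 0 members passed (7.66% of all genes, 4 members at an unadjusted p under 0.05). The difference of the class effect between matrices was called for 0 members in edgeR (4.26% of all genes, 3 members at an unadjusted p under 0.05) and for 0 in DESeq2. In simulated counts this test recovered 30% of 2-fold and 61% of 4-fold changes.

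Other genes around the proteasome give the setting. Of the 10 partners of the particle, 8 were higher in cycling wells, led by Uchl5 (log2 fold change 1.11, SE 0.11, adjusted p = 1.12e-07), a deubiquitinase docked on the regulatory particle, and Usp14 (0.54), another such enzyme. In non-basal wells Uchl5 was also lower in Collagen I, at 91.9, 115 and 109 CPM in BME and 37.7 and 24.5 in Collagen I (log2 fold change -1.69, SE 0.23, adjusted p = 4.74e-05). Of the 8 assembly chaperones, which include the members Psmd5, Psmd9 and Psmd10, 6 were higher in cycling wells, led by Psmg2 (0.74). The core maturation factor Pomp was not called (0.19, adjusted p = 0.0949). Of the immunoproteasome genes and activators only Psme3, the nuclear activator PA28 gamma, was higher in cycling wells (0.72, SE 0.09, adjusted p = 1.80e-06), and 1 of 8 was called in all. Psmb8 and Psmb9, the inducible active sites, were at most 14.9 and 9.91 CPM in any plate and class and were not called in any comparison that tested them. Between matrices in non-basal wells, 7 of the 8 genes of this list were tested. Of 5 regulators tested, 1 was called higher in cycling wells, namely Zfand2a (0.85, SE 0.26, adjusted p = 0.0143), a stress-induced partner of the proteasome. Nfe2l1, which drives proteasome genes, was not called (-0.03), and Nfe2l2 was lower in non-basal wells of Collagen I (-0.70, SE 0.16, adjusted p = 0.00454). Of 8 genes of the p97 segregase, which extracts ubiquitin-tagged proteins, and its cofactors, 2 were higher in cycling wells. Of all tested genes 20.6% were called higher in cycling wells. The counts of activators, regulators and p97 genes were thus near or below that share.

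Other large complexes were set beside the proteasome. In cycling wells 7 of 8 genes of the CCT chaperonin were higher (median 0.50), 4 of 9 of the COP9 signalosome (median 0.24), and of 12 eIF3 genes 5 were higher and 2 lower (median 0.19). Of all tested genes 20.6% were called higher and 18.3% lower there. In non-basal wells the CCT genes fell in Collagen I in 6 of 8 cases (median -0.69), eIF3 in 5 of 12 (median -0.28) and COP9 in 2 of 9 (median -0.27), beside 17 of 35 for the proteasome (median -0.48). In that comparison 13.9% of all tested genes were called lower. Between basal and non-basal wells 7 of 8 CCT genes were lower in basal wells (median -0.37). So were 4 of 12 eIF3 genes (median -0.12) and 1 of 9 COP9 genes (median -0.14), where 13.6% of all tested genes were called lower. These comparisons share plates and wells, and no test was made between complexes.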

How the data were processed

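MMTV-PyMT organoid cells were measured by SORT-seq on 5 plates. The authors deposited estimated counts per gene and well, in which UMI numbers had been corrected for saturation, and the submitters' notes name BWA and mm10. The correction could be undone for 6-base UMIs, although the labels state 4 bases. Wells with over 500 counts, under 8000 genes and under 10% of counts from genes named mt- were kept, without ERCC spike-ins. Doublets were not called. Counts were summed per plate and class, rounded and tested with edgeR 4.0.16 (TMM, filterByExpr, quasi-likelihood test, Benjamini-Hochberg adjustment), with the plate as a block between classes. DESeq2 1.42.0 was an alternative, and the code was tested on simulated data. CPM are counts per 1000000 endogenous counts. Named were Psmb5, Psmb6 and Psmb7, up to 6 called members of largest absolute log2 fold change per direction and comparison, and up to 3 genes of lowest adjusted p from each other list. Members that were not called in cycling wells, Pomp and Nfe2l1 were named after their values were seen. Members and lists were chosen with earlier results of these data known. Replicate numbers 1 and 3 are shared between matrices, but same-numbered plates did not deviate together. Alternatives are given in the closing section. Collagen I replicate 2 was not analysed here. Some genes of the other lists are not reported here.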

Additional observations from a re-analysis of the deposited data

Results flagged for a closer look

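No proteasome member met a criterion for a closer look. Of the 12 eIF3 genes set beside the proteasome, 2 differed between matrices in their basal against non-basal contrast, by edgeR's interaction test with Benjamini-Hochberg adjustment over all tested genes. Eif3h, a subunit of this translation initiation factor, was at 286, 399.7 and 341 CPM in basal wells of BME and 283 and 229 in Collagen I, against 231, 360.0 and 347 and 370.2 and 297 in non-basal wells. The basal wells were thus higher in 2 of 3 BME plates and lower in both Collagen I plates (difference of log2 fold changes -0.567, adjusted p = 0.0353). Eif3i, another subunit, had a difference of -0.641 (adjusted p = 0.0405) and was lower in the basal wells of all 5 plates.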

How the results depend on the processing

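Of the members called, the number lower in Collagen I in basal wells was 2 with DESeq2 and with cycling wells left out, in place of 6. The share of all genes called lower was then 4.83 and 5.87%. The number was 9, 6 and 3 without BME replicates 1, 2 and 3 (10.3, 10 and 5.92% of all genes). In non-basal wells it was 11 with DESeq2 (9.22% of all genes) and 7 after thinning to 2000 counts (10.1%), in place of 17. It was 6 with cycling wells left out (9.85%) and 11 with the replicate block (13.3%). Without BME replicates 1, 2 and 3 it was 23, 11 and 9 (17.5, 13.6 and 11%). In cycling wells the number called was 7 without a filter on low counts (3.69% of all genes lower), in place of 2. It was 4 with ribosomal protein genes, mitochondrial genes, Rn45s, Malat1 and Lars2 left out (3.58%). With the UMI correction undone it was 4 (3.32%), and without the mitochondrial limit 4 (2.92%). It was 10, 2 and 1 without BME replicates 1, 2 and 3 (6.52, 2.5 and 2.02%). Between basal and non-basal wells it was 2 with the UMI correction undone (15.9% of all genes lower), in place of 1. It was 0 after thinning (5.12%), 0 with cycling wells left out (6.86%) and 0 to 3 when each plate was left out (7.78 to 14.3%). Between cycling and non-cycling wells it was 6 after thinning (10.2% of all genes higher), in place of 28. It was 21 to 30 when each plate was left out (16.3 to 20.5%). Within non-basal wells alone 24 members were higher and 1 was lower (17.8 and 16% of all genes). The interaction of matrix and keratin class gave 1 member with the top 5% of wells left out, in place of 0. Of all genes 1.42% were then called higher. Without BME replicates 1, 2 and 3 the interaction gave 0, 0 and 1 (1, 1.7 and 2.34% of all genes higher). The log2 ratio of core to regulatory counts, Collagen I minus BME, was 0.0301 in non-basal, -0.0215 in cycling and -0.0410 in non-cycling wells after thinning. Within non-basal wells alone it was 0.158 in cycling and 0.218 in non-cycling wells. The causes were not tested, although thinning leaves fewer wells and counts. The replicate block left 6 members in basal and 2 in cycling wells. Without a filter on low counts the median of all genes moved to -0.23, -0.25 and -0.38 in basal, non-basal and cycling wells. With 1631981 and 1091410 counts in the Collagen I plates, low members such as Psmc5 and Psmd10 rest on few counts there.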
